A study of Mus musculus with 4 samples.

Results

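Chemokine receptors and integrins, the receptors that steer T cells between organs and hold them there, were read in 4 populations of mouse CD4 T lineage cells. The set holds every gene whose symbol names a CC, CXC, CX3C, XC or atypical chemokine receptor or an integrin alpha or beta chain, apart from Cxcr3, Cxcr5, Cxcr6, Ccr7 and Ccr8. It came to 43 of the 22180 genes named on the array, made up of 18 chemokine receptors, 17 integrin alpha chains and 8 beta chains. The choice used gene names and no measured value, but it was made with earlier results of these arrays known.

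Each population was measured on 1 Affymetrix array, and all mice were of the C57BL/6 background at 8 weeks of age. The naive group was labelled as wild-type splenic T cells sorted as CD4+CD62Lhi. The cTh1 group (classical Th1) started from such splenic cells and was cultured for 5 days with CD3/CD28 beads, IL-2 at 50 U/ml, IL-12 at 2 ng/ml and an antibody against IL-4, labelled as 5 mg/ml. The TT naive group was CD4+CD62L+CXCR3- thymocytes of mice labelled CIITAtg, and the nTh1 (natural Th1) group was CD4+CD62L+CXCR3+ thymocytes of CIITAtg mice. CIITA is the master regulator of MHC class II transcription. No source used here gives what drives the transgene or how many animals were pooled per array.

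Chemokine receptors are G protein-coupled receptors that turn a chemokine gradient into directed movement, while atypical receptors bind chemokines without that signal and shape the gradient. Integrins are pairs of an alpha and a beta chain that bind cell surface ligands or matrix, and chemokine signals switch them to their adhesive form. Naive T cells are known for the lymph node receptors, effector T cells for receptors of inflamed tissue, and thymocytes for receptors that place them within the thymus.

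Values are log2 probe set values after RMA, the standard background correction, normalization and summary for these arrays. A difference of 1 on this scale is 2-fold. Each population has 1 array, so differences lack a replicate check and no test was run. The table holds a single kind of error, the spread of a difference between probe sets of the same gene, with an SD from 0.257 (nTh1 over TT naive) to 0.481 (nTh1 over cTh1). Differences between animals, sorts and arrays lie outside that SD. Less RNA per cell and fewer cells of a type cannot be told apart in such samples.

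The array labelled naive, called the naive-labelled array from here on, went against its label. It had Zbtb16, the PLZF gene of innate-like T cells, at 12.23 against 9.36 in TT naive, and Tbx21, the T-bet gene of Th1 cells, at 9.81 against 7.11. In nTh1 Zbtb16 was at 9.88 and Tbx21 at 7.92, both closer to TT naive than to the naive-labelled array. In cTh1 they were at 7.31 and 11.25. The name Th1 for nTh1 follows its label. Cxcr3 separated the thymic sorts, at 9.91 in nTh1 and 7.76 in TT naive, but was also at 9.80 on the naive-labelled array. The MHC class II gene H2-Aa was at 12.66 on the naive-labelled array, near the CIITAtg arrays TT naive at 12.29 and nTh1 at 12.66. It was at 10.73 in cTh1. Ciita itself lay between 7.28 in TT naive and 8.00 in cTh1, with 7.59 on the naive-labelled array and 7.72 in nTh1. Y-linked Eif2s3y was at 8.61 and 8.55 on the naive-labelled array and TT naive, and at 4.97 and 5.16 in cTh1 and nTh1. The X-inactivation RNA Xist was at 12.56 to 13.25 on all 4 arrays, so the naive-labelled array and TT naive carried both signals. Values of cTh1 are therefore set against TT naive as well. Whether arrays were exchanged was not tested. The words spleen, culture, wild-type and genotype follow the labels, and would not hold for an array that had been exchanged. All 7 measured T cell markers of the fixed list, among them Cd3e and Cd4, differed by under 2-fold in every comparison. Markers of other cells moved between arrays. The 6 measured B cell markers had a median difference of 3.05 for cTh1 over the naive-labelled array, and both CD8 chains were at least 2-fold higher there. The 11 macrophage markers had a median difference of 1.66 for nTh1 over TT naive, with 8 of them at least 2-fold higher.

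Many members differed between arrays, chemokine receptors most often. A gene passed the level filter where any array compared reached 6.61, the median over the whole table. Whether a value under it is above background was not tested, so the fold against such a value is a ratio of array values and may understate the difference. On any of the 4 arrays 34 of the 43 members passed, and 18 of them spanned 2-fold or more between their lowest and highest array, against 17.9% of all genes that passed. Without a filter, the median span was 0.68 for the 43 members and 0.43 for all genes. Chemokine receptors had a median span of 0.84, alpha chains 0.72 and beta chains 0.53. The 9 members under the filter everywhere were Ccr1, Ccr1l1, Ccr3, Xcr1, Ackr1, Ackr4, Itga8, Itgad and Itgb6, with values from 4.20 to 6.47. Of the 34 that passed, 13 were highest on the naive-labelled array (29.3% of all genes), 11 in cTh1 (34.2%), 6 in nTh1 (20.5%) and 4 in TT naive (16.1%).

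**Figure D1:**
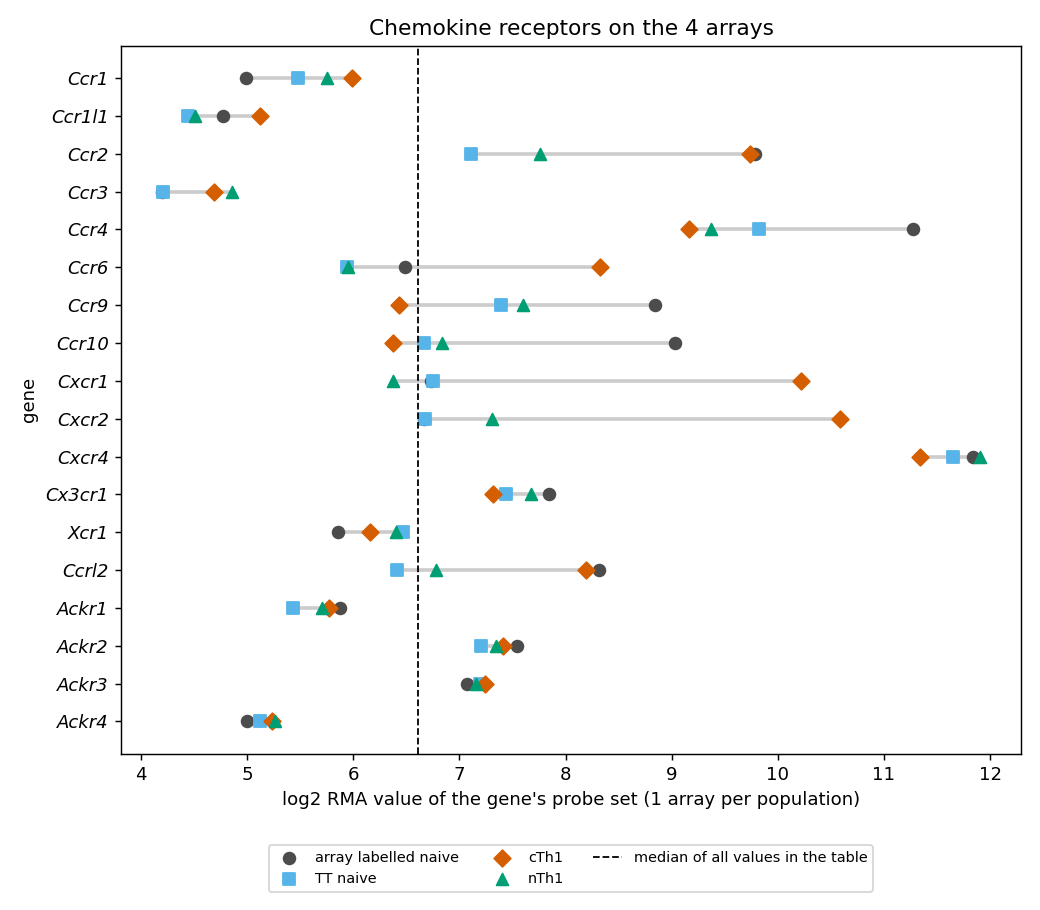
Log2 RMA values of the 18 chemokine receptors on each of the 4 arrays, with a grey line from the lowest to the highest array and a dashed line at 6.61, the median of all values. Cxcr1 and Cxcr2 stand apart in cTh1 at 10.22 and 10.58, and Ccr4, Ccr9 and Ccr10 on the naive-labelled array. Only points within a row can be compared, since each gene has its own probe set.

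The CXC receptors Cxcr1 and Cxcr2, which bind the neutrophil-attracting chemokines and are best known from neutrophils, gave the largest spans of any receptor. Cxcr2 was at 10.58 in cTh1, against 6.66 on the naive-labelled array, 6.67 in TT naive and 7.31 in nTh1. Cxcr1 was at 10.22 in cTh1, against 6.73, 6.75 and 6.38 in the same order. The cultured cells were thus high and the other 3 arrays close to the median of all values. Against TT naive the difference was 15.0-fold for Cxcr2 and 11.1-fold for Cxcr1, and against the naive-labelled array 15.1-fold and 11.2-fold. The 7 neutrophil markers had a median difference of 0.07 for cTh1 over the naive-labelled array and of 0.13 over TT naive, but 1 of them passed the filter in each comparison, at under 2-fold. Their highest values were in nTh1, where Ngp, a granule protein, was at 8.79 against 5.66 in cTh1. Markers of B cells and CD8 T cells were high in cTh1, with Cd79a at 10.29 and Cd8a at 10.31. The part of these cell types in the Cxcr1 and Cxcr2 values was not tested.

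Cxcr1 and Cxcr2 are neighbours on chromosome 1, with no other protein-coding gene between them in the RefSeq gene order. Their promoters are shown because the genes move together in cTh1, and those of Itga2 and Ccr2 as examples of the 3 members, with Ccrl2, that were high on both spleen-derived arrays. Each is the RefSeq window of GRCm38.p6 from 250 bases before to 50 after the start site, read 5′ to 3′ on the gene's strand. Capitals mark matches on either strand to the T-box core AGGTGT, the Runx core TGTGGT, the NFAT core GGAAAA or the STAT element TTCNNNGAA.
Cxcr1, chr1:74194582-74194881, minus strand: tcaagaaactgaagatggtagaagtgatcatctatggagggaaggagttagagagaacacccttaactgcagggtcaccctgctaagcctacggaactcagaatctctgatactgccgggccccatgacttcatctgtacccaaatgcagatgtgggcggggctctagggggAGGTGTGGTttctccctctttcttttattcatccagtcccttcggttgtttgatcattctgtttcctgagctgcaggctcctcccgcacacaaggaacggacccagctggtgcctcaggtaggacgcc
Cxcr2, chr1:74153744-74154043, plus strand: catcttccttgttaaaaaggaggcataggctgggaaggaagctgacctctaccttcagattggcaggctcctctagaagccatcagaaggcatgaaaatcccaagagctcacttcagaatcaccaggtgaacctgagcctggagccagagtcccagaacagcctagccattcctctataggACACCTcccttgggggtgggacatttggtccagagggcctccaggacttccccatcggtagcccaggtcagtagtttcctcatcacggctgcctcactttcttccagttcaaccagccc
Itga2, chr13:114932051-114932350, minus strand: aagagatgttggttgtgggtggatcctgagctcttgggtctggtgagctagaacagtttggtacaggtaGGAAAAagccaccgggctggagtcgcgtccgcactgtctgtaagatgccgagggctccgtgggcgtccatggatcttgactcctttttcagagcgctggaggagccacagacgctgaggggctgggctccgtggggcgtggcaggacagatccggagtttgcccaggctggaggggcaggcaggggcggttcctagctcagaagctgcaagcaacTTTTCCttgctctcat
Ccr2, chr9:124101933-124102232, plus strand: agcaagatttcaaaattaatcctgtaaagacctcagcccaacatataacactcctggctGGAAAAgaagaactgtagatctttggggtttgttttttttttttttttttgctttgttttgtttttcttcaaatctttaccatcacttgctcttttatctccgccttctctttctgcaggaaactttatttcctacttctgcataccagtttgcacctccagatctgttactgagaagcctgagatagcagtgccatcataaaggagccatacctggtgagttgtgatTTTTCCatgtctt
The T-box core lies 78 bases before the start site of Cxcr1 on the gene's strand, where it overlaps the Runx core, and 69 bases before that of Cxcr2 on the opposite strand. It is present in 13.7% of the 32851 promoter windows in the table, the Runx core in 16.8%, the NFAT core in 23.4% and the STAT element in 8.3%. The windows of Itga2 and Ccr2 each hold the NFAT core before and after the start site and no T-box core, while the 3 windows listed for Ccrl2 hold none of these motifs. These are letter matches and do not show a bound site.

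The remaining CXC member differed little. Cxcr4, the CXCL12 receptor that acts in bone marrow and in the thymic cortex, was at 11.84 on the naive-labelled array, 11.65 in TT naive, 11.34 in cTh1 and 11.90 in nTh1.

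Among receptors for inflammatory CC chemokines, Ccr2 alone passed the filter. Ccr2, the CCL2 receptor of monocytes and effector T cells, was at 9.79 on the naive-labelled array, 7.11 in TT naive, 9.74 in cTh1 and 7.76 in nTh1. Both spleen-derived arrays were high and both thymic arrays low, and the closest pair across that gap, nTh1 over cTh1, differed by -1.98. Monocytes also carry Ccr2. The 11 macrophage markers had a median difference of -0.93 for TT naive over the naive-labelled array, 0.36 for cTh1 over TT naive and 0.78 for nTh1 over cTh1, where Ccr2 was at -2.68, 2.63 and -1.98, and their part in the Ccr2 values was not tested. Ccr1, Ccr1l1 and Ccr3 spanned 0.65 to 1.00 at values below the filter. Whether probes read across close relatives among these receptors was not tested.

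All 4 CC receptors known for homing to particular tissues spanned more than 2-fold. Ccr4, which serves skin homing and is carried by Th2 and regulatory T cells and by thymocytes moving to the medulla, was at 11.28 on the naive-labelled array. Its values in TT naive, cTh1 and nTh1 were 9.82, 9.17 and 9.37. Ccr9, the CCL25 receptor of thymocytes and gut-homing T cells, was at 8.84 on the naive-labelled array, 7.39 in TT naive, 6.43 in cTh1 and 7.60 in nTh1. Ccr10, the receptor for the skin and mucosal chemokines CCL27 and CCL28, was at 9.03, 6.67, 6.37 and 6.84 in the same order. For these 3 receptors the naive-labelled array was the highest and cTh1 the lowest. Between TT naive and nTh1 their differences were -0.46 for Ccr4, 0.21 for Ccr9 and 0.17 for Ccr10. Ccr6, the CCL20 receptor of Th17 cells and B cells, followed another order, at 8.32 in cTh1 against 6.48, 5.94 and 5.95 on the naive-labelled array, TT naive and nTh1. The B cell markers Cd79a, Cd79b, Ms4a1 and Cd22 were also highest in cTh1, and their part in the Ccr6 value was not tested.

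Of the other receptors only Ccrl2 moved by 2-fold. Ccrl2, which presents chemerin and does not signal itself, was at 8.31 on the naive-labelled array, 6.41 in TT naive, 8.19 in cTh1 and 6.78 in nTh1, the order already seen for Ccr2. Cx3cr1, the fractalkine receptor of monocytes and cytotoxic lymphocytes, lay between 7.32 and 7.84 on all arrays. The scavengers Ackr2, at 7.20 to 7.54, and Ackr3, at 7.07 to 7.24, differed little, while Ackr1, Ackr4 and the dendritic cell receptor Xcr1 stayed under the filter. The lymph node receptor Ccr7, outside the set, lay between 12.32 and 12.95, and Cxcr6, the CXCL16 receptor, was at 10.56, 7.78, 11.47 and 8.19 on the naive-labelled array, TT naive, cTh1 and nTh1. Cxcr5 lay between 8.06 and 8.82 and Ccr8 between 8.10 and 10.95.

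**Figure D2:**
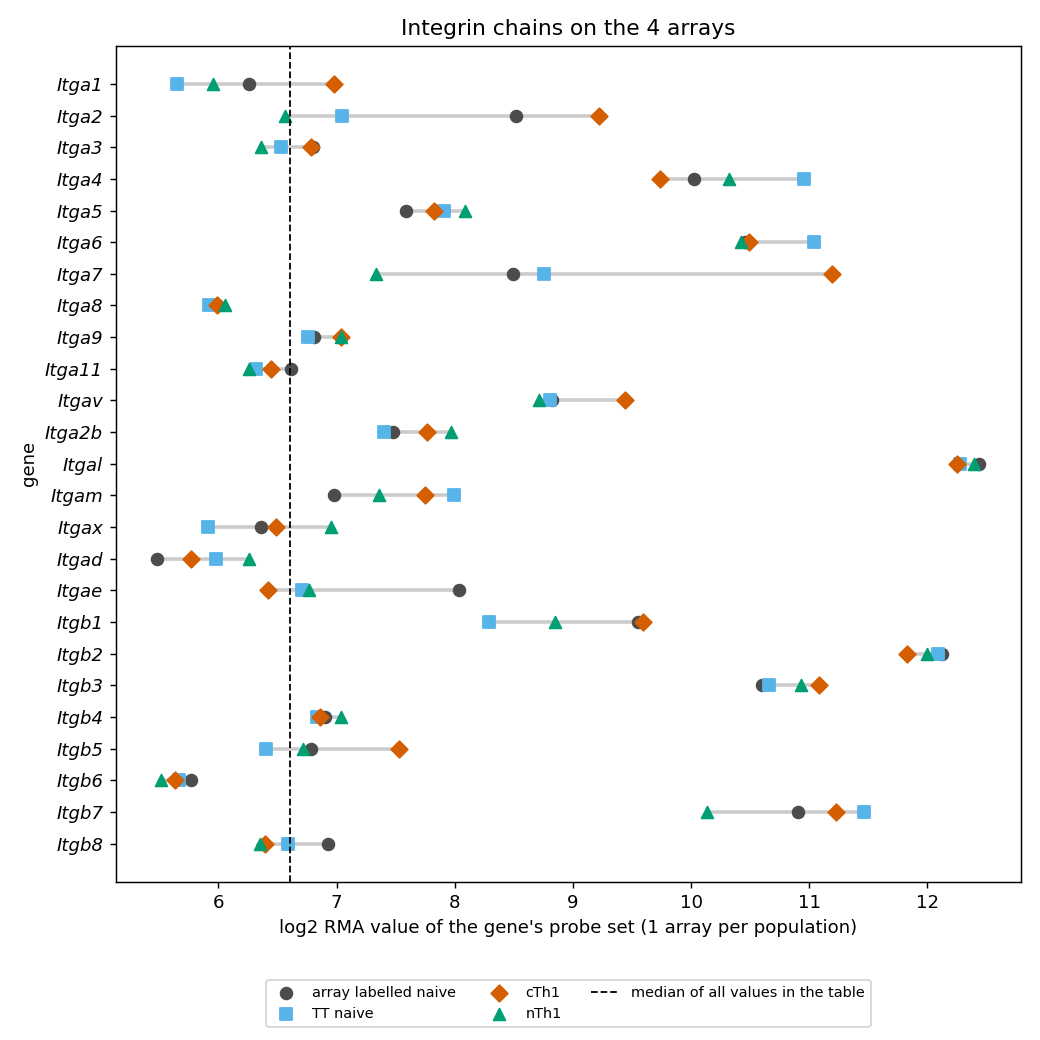
Log2 RMA values of the 25 integrin chains on each of the 4 arrays, with a grey line from the lowest to the highest array and a dashed line at 6.61, the median of all values. Itga7 spans 7.33 in nTh1 to 11.19 in cTh1, while Itgal and Itgb2 hold nearly the same value on every array. Only points within a row can be compared.

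The integrin of all T cells, LFA-1, was steady. Itgal, its alpha chain, was at 12.44 on the naive-labelled array, 12.28 in TT naive, 12.25 in cTh1 and 12.39 in nTh1. Itgb2, the shared beta chain, was at 12.12, 12.09, 11.83 and 11.99. The other alpha chains that pair with Itgb2 are known from myeloid cells. Itgax, which marks dendritic cells, was at 6.95 in nTh1 against 5.91 in TT naive, with 6.36 and 6.49 on the naive-labelled array and in cTh1. Itgam, the Mac-1 chain, ran the other way, at 7.36 in nTh1 and 7.99 in TT naive, with 6.98 on the naive-labelled array and 7.75 in cTh1. The macrophage markers Lyz2 and C1qb were higher in nTh1 than in TT naive by 3.38 and 2.34. The 5 measured dendritic cell markers had a median difference of 0.04 there, and 3 passed with 0 at 2-fold. The part of either cell type in the Itgax value was not tested. Itgad lay between 5.48 and 6.26, under the filter.

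Chains of the gut-homing integrins did not move as a block. Itgb7, which pairs with Itga4 to bind MAdCAM-1 and with Itgae to bind E-cadherin, was at 10.13 in nTh1 against 11.46 in TT naive, 10.90 on the naive-labelled array and 11.22 in cTh1. The nTh1 value was the lowest, and the difference from TT naive was -1.33. Itga4, the alpha chain of VLA-4 and of the MAdCAM-1 receptor, was highest in TT naive at 10.96, with 10.32 in nTh1, 10.02 on the naive-labelled array and 9.74 in cTh1. A probe set named for both Cerkl and Itga4, which the rule leaves out, had another order. It was highest in cTh1 at 7.33, with 7.12 on the naive-labelled array, 7.04 in TT naive and 6.85 in nTh1. Itgae (CD103), carried by epithelial-resident T cells and by some thymocytes and regulatory T cells, was at 8.03 on the naive-labelled array and at 6.71, 6.42 and 6.77 in TT naive, cTh1 and nTh1. Of the 4 regulatory T cell markers, Ikzf2 was highest on the naive-labelled array at 10.89, as Itgae was. Foxp3 and Gpr83 were highest in TT naive at 9.87 and 9.51, and Il2ra in cTh1 at 12.52. Their part in the Itgae value was not tested.

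The collagen and laminin receptors held the largest integrin difference. Itga7, a laminin-binding chain best known from muscle, was at 11.19 in cTh1 and 7.33 in nTh1, a 14.6-fold difference, with 8.49 on the naive-labelled array and 8.75 in TT naive. It was at 2-fold or more in 5 of the 6 comparisons, more than any other member, and differed by only 0.26 between TT naive and the naive-labelled array. Itga2 (CD49b), a collagen receptor of NK cells and effector T cells, was at 8.52 on the naive-labelled array, 7.04 in TT naive, 9.22 in cTh1 and 6.57 in nTh1. Itga1 (CD49a), its neighbour on chromosome 13 and a marker of tissue-resident T cells, was at 6.26, 5.65, 6.98 and 5.96 in the same order. Of the 4 NK markers only Gzma, a granzyme that effector T cells also make, passed the filter, at 10.52 in cTh1, while the NK receptor genes Ncr1, Klrb1c and Klre1 were at 5.37, 4.73 and 5.53 there. Both collagen chains were highest in cTh1, although Itga1 passed the filter through cTh1 alone. Itgb1, the beta chain of these pairs, was at 9.55 on the naive-labelled array, 8.29 in TT naive, 9.59 in cTh1 and 8.85 in nTh1. Itga6, a laminin receptor chain, stayed between 10.42 and 11.04 and Itga5, the fibronectin receptor chain, between 7.58 and 8.08. Itga3, Itga9 and Itga11 were close to the filter, between 6.26 and 7.04.

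Itgb5, a vitronectin receptor chain, was highest in cTh1 at 7.53, against 6.79, 6.40 and 6.72 on the naive-labelled array, TT naive and nTh1. Itgav was at 9.44 in cTh1 and between 8.72 and 8.83 elsewhere. A further probe set of Itgav had values of 5.56 to 5.93, with cTh1 the lowest, so the probe sets of this gene disagreed in order. Itgb3, known from platelets and osteoclasts, was above the filter everywhere, between 10.60 and 11.08. Its platelet partner Itga2b lay between 7.40 and 7.97. Of the 3 measured platelet genes, Pf4 and Ppbp lay between 5.14 and 5.82, under the filter, and Gp9 between 6.72 and 6.91, above it. Itgb4 and Itgb8 spanned less than 2-fold, and Itgb6 was under the filter.

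The thymic comparison, nTh1 over TT naive, sets CXCR3+ against CXCR3- CIITAtg thymocytes. Y-linked Eif2s3y also differed, at 5.16 against 8.55, and the 11 macrophage markers had a median difference of 1.66. CXCR3, the sex of the donors and the mix of cells therefore cannot be told apart. No chemokine receptor of the set reached 2-fold, and the nearest was Ccr2 at 0.65. Itgb7 and Itga7 were lower in nTh1, by 2.51-fold and 2.68-fold, and Itgax, which passed through nTh1 alone, was higher by 2.05-fold. Among 29 members that passed, these 3 were at 2-fold, against 2.5% of all genes (1.41% higher, 1.09% lower). The median difference was 0.14 over the 43 members and -0.01 over all genes. The Itgax call was lost when each array was centred on its own median.

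The spleen comparison is cTh1 over the naive-labelled array, by the labels Th1 culture against sorted splenic cells. Eif2s3y was at 4.97 in cTh1 against 8.61, Cd79a at 10.29 against 6.53 and Cd8a at 10.31 against 6.31. Culture, the sex of the donors and the mix of cells therefore cannot be told apart here. TT naive as the baseline, with Eif2s3y at 8.55, keeps the difference in Y-linked signal and adds tissue and genotype. Cxcr1, Cxcr2, Ccr6 and Itga7 were higher in cTh1, from 3.58-fold for Ccr6 to 15.1-fold for Cxcr2. Ccr10, Ccr9, Ccr4 and Itgae were lower, from 3.06-fold for Itgae to 6.31-fold for Ccr10. Ccr6 passed through cTh1 alone, and Ccr10, Ccr9 and Itgae were under the filter in cTh1. These 8 were among 33 members that passed, and 6 of them were receptors, against 8.48% of all genes at 2-fold (5.13% higher, 3.35% lower). Without the naive-labelled array the list changed. Over TT naive, 10 members were higher in cTh1 and 1 lower of 31 that passed, against 10.3% of all genes at 2-fold either way (7.24% higher, 3.02% lower). Cxcr1, Cxcr2, Ccr6 and Itga7 were higher with either baseline. Ccr2, Ccrl2, Itga1, Itga2, Itgb1 and Itgb5 joined them over TT naive, with Ccr2 at 6.18-fold. Ccr6, Ccrl2, Itga1 and Itgb5 were under the filter in TT naive and passed through cTh1 alone, where they are high. Ccr4, Ccr9, Ccr10 and Itgae differed by -0.66, -0.96, -0.29 and -0.28 over TT naive, under 2-fold as deposited, although Ccr9 was at -1.03 with a loess trend removed. The lower member there was Itga4 at -1.22.

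**Figure D3:**
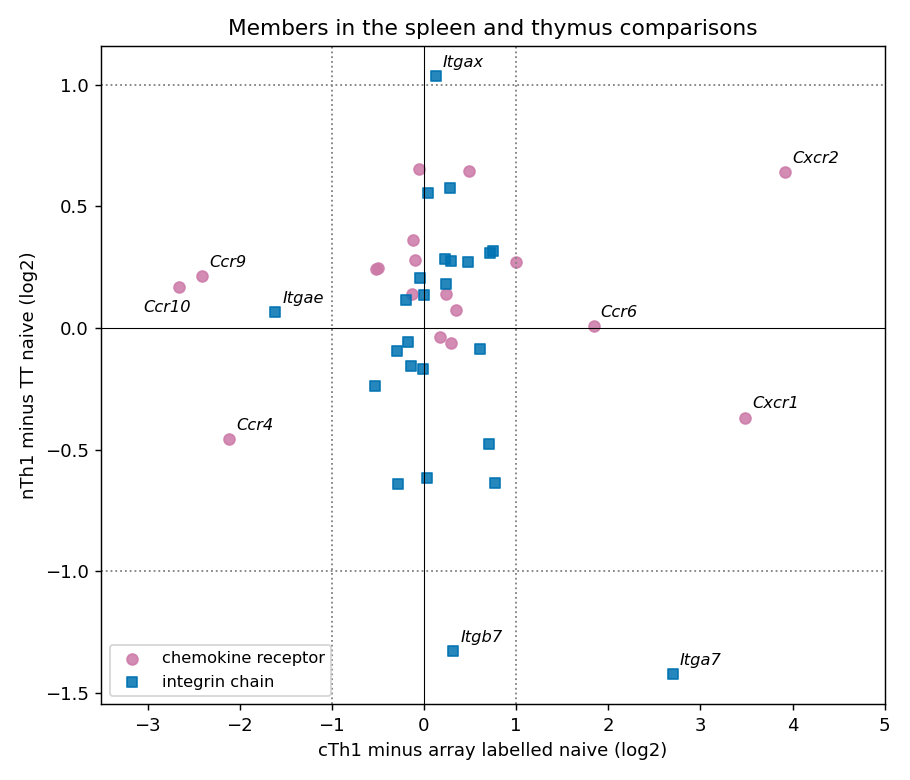
Log2 difference of each of the 43 members in the spleen (cTh1 minus the naive-labelled array, horizontal) and in the thymus (nTh1 minus TT naive, vertical), with dotted lines at 2-fold and names for members past a line. The receptors past 2-fold lie along the horizontal axis. Itga7 alone passes both lines, at 2.70 and -1.42.

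Natural and classical Th1 cells are the pair named in the series title. Of 32 members that passed, 9 were lower in nTh1 than in cTh1 and 1 was higher, against 11.8% of all genes at 2-fold either way (3.46% higher, 8.3% lower). Lower were Itga7, Cxcr1, Cxcr2, Itga2, Ccr6, Ccr2, Ccrl2, Itgb7 and Itga1, with Cxcr1 at 14.3-fold, Cxcr2 at 9.65-fold and Itga2 at 6.30-fold. Cxcr1, Itga2, Ccr6 and Itga1 were under the filter in nTh1. Ccr9 was higher in nTh1, by 2.25-fold, a call lost with centred arrays. The median difference of the 43 members was -0.07, and that of all genes -0.03. Tissue, genotype and culture differ together between these arrays and cannot be told apart.

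Both thymic arrays were set against the naive-labelled array last, since they rest on that label. In TT naive 8 members were lower and 1, Itgam, higher (a call lost with centred arrays), of 31 that passed, against 3.39% of all genes at 2-fold (0.795% higher, 2.59% lower). In nTh1 8 were lower and 0 higher of 32 that passed, against 6.36% (1.93% higher, 4.43% lower). These comparisons share the naive-labelled array. Ccr10 was lower by 5.15-fold in TT naive and by 4.58-fold in nTh1, and Ccr2 by 6.40-fold and 4.07-fold. For Ccr9 the values were 2.73-fold and 2.36-fold, and for Itgae 2.51-fold and 2.40-fold. Itga7, level with the naive-labelled array in TT naive, was lower by 2.24-fold in nTh1. Both thymic arrays were at least 2-fold below both spleen-derived arrays for Ccr2, Ccrl2 and Itga2, which are 3 of the 34 members that passed, against 0.808% of all genes. Ccrl2 was under the filter in TT naive, at 6.41, and Itga2 in nTh1, at 6.57. The reverse split, with both thymic arrays above, held for 0 members and 0.242% of genes. This split was chosen after the values were seen. It takes the naive-labelled array as spleen-derived.

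**Figure D4:**
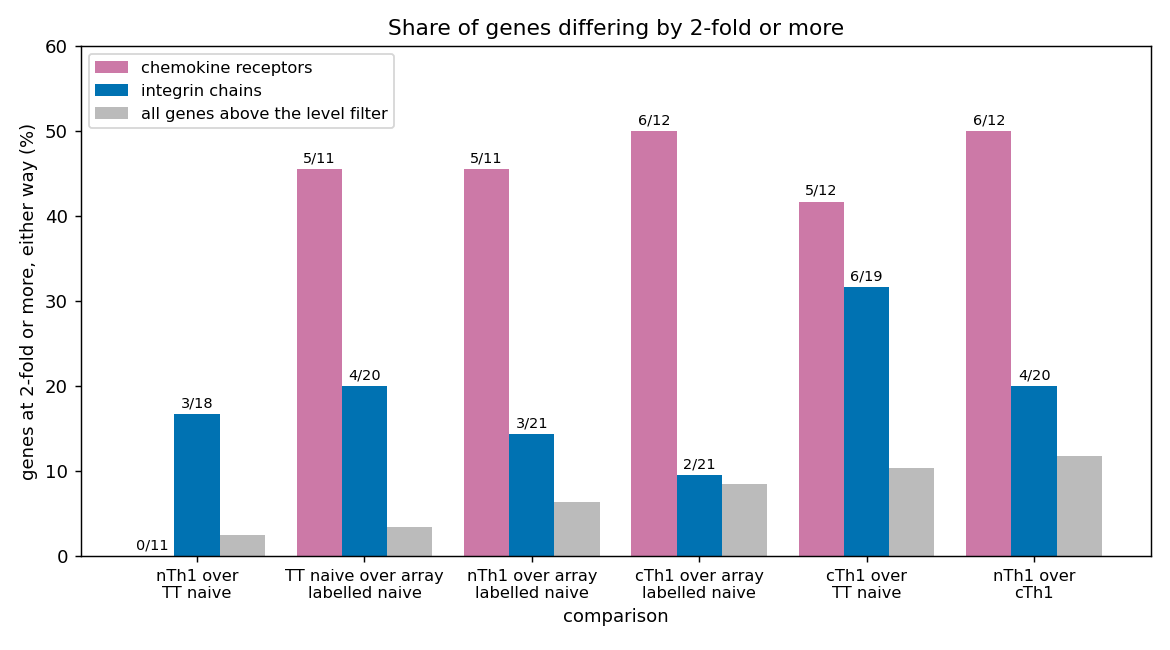
Percent of genes at 2-fold or more in either direction in each comparison, for chemokine receptors, integrin chains and all genes that passed the level filter, with the number called over the number that passed above each member bar. Receptors range from 0 of 11 in nTh1 over TT naive to 6 of 12 in nTh1 over cTh1.

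Genome position showed where family members did and did not move together. Cxcr1 with Cxcr2, and Itga1 with Itga2, are adjacent genes that were both highest in cTh1. The chromosome 9 cluster was mixed. There Ccr9 was highest on the naive-labelled array and lowest in cTh1, Cxcr6 beyond it was highest in cTh1, and Xcr1, Ccr1, Ccr1l1 and Ccr3 were below the filter. Ccr2, next to Ccr3, was at 9.79 on the naive-labelled array and 9.74 in cTh1. Of the adjacent genes Itgam, Itgax and Itgad on chromosome 7, Itgam was above the filter on all 4 arrays, Itgax in nTh1 alone and Itgad on none. Promoter windows were found in RefSeq for 34 of the 43 members. With the first window listed for each gene, those of the 17 receptors held a median of 4 CG dinucleotides in 300 bases. Those of the 17 integrin chains held 13, and all windows 7. Of receptors with little difference between arrays, Cxcr4 held 20 and Ackr2 3. Of members that spanned more than 2-fold, Ccr2, shown above, held 1 and Itgb1 27. A relation between this count and the span was not tested.

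Genes that act with these receptors are read against the same shares of all genes at 2-fold as the members. Of 27 measured genes of integrin activation, such as the talin gene Tln1 and the kindlin gene Fermt3, 24 passed for nTh1 over TT naive and 0 were at 2-fold, against 2.5% of all genes. For cTh1 over the naive-labelled array 25 passed and 1 was at 2-fold, against 8.48%, namely Skap2, an adaptor of integrin activation, at 9.35 against 8.05. Over TT naive 4 of 25 were at 2-fold, against 10.3%. Skap2 and Vcl, the vinculin gene, were higher in cTh1, and Rasgrp2, an activator of the Rap1 switch, and Flna, which competes with talin, were lower. Of 27 measured genes of chemokine receptor signalling 26 passed. At 2-fold were 1 for nTh1 over TT naive (2.5% of all genes), 3 for cTh1 over the naive-labelled array (8.48%), 3 for cTh1 over TT naive (10.3%) and 3 for TT naive over the naive-labelled array (3.39%). Rgs1, which shortens G protein signals, was higher in nTh1 than TT naive at 11.10 against 9.67. Rgs2 was lowest in cTh1, at 9.48, against 12.41 on the naive-labelled array, 11.39 in TT naive and 11.83 in nTh1. Arrb1, the beta-arrestin 1 gene, was highest in cTh1 at 11.83.

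Of 35 measured chemokines 18 passed for nTh1 over TT naive, and 5 were at least 2-fold higher and 0 lower, against 1.41% and 1.09% of all genes. They were Ccl3, Ccl6, Ccl9, Cxcl2 and Xcl1, with Xcl1, the ligand of Xcr1, at 9.36 against 7.05. Ccl3, Ccl6 and Cxcl2 were under the filter in TT naive and passed through nTh1, where they are high. Ccl6, Ccl9 and Cxcl2 are known from myeloid cells, whose markers moved the same way, and their part was not tested. Of 19 that passed for cTh1 over the naive-labelled array, Ccl3, Ccl5 and Ccl22 were higher and Ccl17 and Xcl1 lower, against 5.13% and 3.35% of all genes, with Ccl5, a ligand of Ccr1 and Ccr3, at 11.11 against 9.34. Over TT naive Ccl3, Ccl5 and Ccl22 were again higher in cTh1, while Ccl17 and Xcl1 differed by -0.03 and 0.13, so the lower calls rest on the naive-labelled array. Among 21 measured integrin ligands, Icam1, the ligand of LFA-1, was at 10.40 in cTh1, 9.57 in nTh1, 9.18 on the naive-labelled array and 8.70 in TT naive. Fn1 and Vcam1, the ligands of Itga4 pairs, were higher in nTh1 than in TT naive, at 9.06 against 5.96 and 7.75 against 6.24, where both TT naive values were under the filter. Lyz2 and Ngp, of macrophages and neutrophils, were higher there by 3.38 and 3.50, and their part was not tested. Of 15 other homing genes, Cd44, the hyaluronan receptor of experienced T cells, was at 9.45 in nTh1 against 7.44 in TT naive. The leukotriene receptor Ltb4r1 was highest in cTh1, at 8.45. S1pr1, the egress receptor, lay between 10.71 and 11.36. The gene of the CD62L sort marker was not analysed here.

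Marker lists give the setting of the values above as the log2 of the summed linear level of each list. The B cell list stood at 9.30 on the naive-labelled array, 9.19 in TT naive, 12.05 in cTh1 and 10.06 in nTh1, and none of its 6 measured genes was under the filter in cTh1. The CD8 list was at 8.75, 9.54, 11.54 and 9.89 in that order. For macrophage markers the sums were 11.41, 10.36, 10.83 and 11.94, and for neutrophil markers 8.38, 8.39, 8.45 and 10.14. The 4 measured immature thymocyte markers summed to 9.45, 9.26, 9.97 and 11.07. Of these, Dntt and Cd24a were at least 2-fold higher in nTh1 than in TT naive and 0 were lower. The part of immature thymocytes in the values of the thymic arrays was not tested. Under the filter in cTh1 were 6 of 7 neutrophil markers, S100a8 and Retnlg among them.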

How the data were processed

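RNA of 4 mouse populations was measured on 1 Affymetrix array each, from 300 ng of total RNA, per the labels' protocols. Per the submitters' processing notes, the authors ran RMA with Affymetrix Expression Console 1.3.1 and deposited the log2 values. That method forces the arrays to a common distribution, so shifts of the whole transcriptome are not visible. The table held 41345 probe sets, of which 23521 had 1 gene symbol in the platform annotation and 1814 several. Only the former were used, and for a gene with several probe sets the highest mean over the 4 arrays decided. All 43 member symbols matched a RefSeq gene table of GRCm38.p6, used for names and gene order, and promoter windows came from RefSeq.

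A gene entered a comparison when either array reached 6.61, and was called at 2-fold. All 6 pairs of arrays were compared on the log2 scale without a test. Members and gene lists were chosen with earlier results of these data known. Every member is accounted for, and other genes are named by their list and size of difference. Zbtb16, Tbx21, Cxcr3, H2-Aa, Ciita, Eif2s3y and Xist are given as checks of the labels. Motifs and the promoters shown were chosen after the values were seen. The alternatives were a 3-fold threshold, the level filter left out or raised to the 75th percentile, arrays centred on their medians, a loess trend taken out (span 0.3) and all probe sets of a gene averaged. The tools were statsmodels 0.14.6, pandas 2.3.3, numpy 2.4.6 and matplotlib 3.10.9 in Python 3.11.15.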

Additional observations from a re-analysis of the deposited data

Results flagged for a closer look

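Itga7, the laminin-binding integrin chain, differed in opposite directions between the populations labelled Th1 and naive of spleen and thymus. It was higher by 2.70 on the log2 scale in cTh1 than on the array labelled naive, and its value for nTh1 over TT naive was -1.42, so the differences lie 4.12 apart. That gap was not tested, since each population has 1 array. Over both comparisons 38 of 12032 genes, 0.316%, were at 2-fold in opposite directions, and Itga7 was the 1 member among them. Without the array labelled naive the spleen-derived value, cTh1 over TT naive, was 2.44.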

How the results depend on the processing

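At a 3-fold threshold the members called fell from 3 to 0 for nTh1 over TT naive, from 10 to 6 for nTh1 over cTh1, from 8 to 4 for nTh1 over naive, from 9 to 3 for TT naive over naive and from 11 to 7 for cTh1 over TT naive. For cTh1 over naive all 8 stayed. With a filter at the 75th percentile, which tests fewer genes, nTh1 over cTh1 had 6 and cTh1 over TT naive 7. Every other alternative run moved a count of members by no more than 1.5 times. Centring ended the calls of Itgax (0.97, nTh1 over TT naive), Itgam (0.95, TT naive over naive) and Ccr9 (0.99, nTh1 over cTh1), and moved the median of all genes by over 0.1 in 3 comparisons, to -0.21 for nTh1 over cTh1, -0.18 for nTh1 over naive and 0.14 for cTh1 over TT naive. Removing the loess trend ended the call of Itga1 (-0.99, nTh1 over cTh1) and added Ccr9 (-1.03, cTh1 over TT naive). No called member changed sign with centring or loess. Centring could not have done so at 2-fold, since the array medians lay between 6.52 and 6.70. Every called member has 1 probe set with a single gene symbol, so averaging probe sets could not change its values. The probe set shared by Itga4 and Cerkl was not averaged. No paired analysis was possible because each group has 1 array, and for the same reason no array could be left out within a group. Precision is limited by having 4 arrays in all.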
